A study of Mus musculus with 2 samples.

Results

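The genes examined here encode the chains of the collagens. They were taken by name, as the probe sets with exactly 1 gene symbol whose symbol is Col, a number, a and a number, which gave 46 probe sets and 44 genes of the 19938 genes that could be named on the array. Col6a5 and Col6a6 have 2 probe sets each, which were averaged, and the other genes have 1. By the class of the protein, 11 are fibrillar collagens, 6 are the Col4 genes of basement membranes and 27 belong to other types. RNA came from 1 line of primary myoblasts, the dividing cells to which muscle stem cells give rise, grown from hind limb muscle of mice 5 to 6 weeks old. These cells carry floxed alleles of Mll1 (MLL1 fl/fl) and Rosa-CreER, a Cre recombinase that is made in all cells and enters the nucleus only with 4-hydroxytamoxifen (4-OHT). The control culture received 0.01% EtOH for 7 days. The Mll1 cKO culture, labelled MLL1 KO, received 500 nM 4-OHT in the same amount of EtOH for 7 days. Both were then kept without these for 3 days according to the labels, or for 2 days according to the methods. Both grew in medium with FBS (20%) and FGF on dishes coated with collagen, and both carry the floxed alleles and the recombinase. No culture received 4-OHT without the floxed alleles, so the drug and the deletion cannot be told apart.

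Collagens are secreted proteins of 3 chains wound around each other, and each chain repeats a Gly-X-Y motif. Fibrillar collagens such as types I, III and V build the fibres of tendon, skin and the connective tissue around muscle. Type IV collagen forms the sheet-like network of the basement membrane that covers each muscle fibre and its satellite cells. Other types coat fibrils, form beaded filaments or short-chain networks, cross the cell membrane, or carry long sugar chains. In muscle, fibroblasts make most of the fibrillar collagen, and satellite cells and muscle fibres also make collagens of their own niche.

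Each condition has 1 Affymetrix MoGene 1.0 ST array, and the values are log2 signals after RMA normalization. Differences below are on the log2 scale, Mll1 cKO minus control, and folds are the same differences on the linear scale. With 1 array per condition there is no spread between replicates, no error and no test, and precision is limited by having 2 arrays in all. Kmt2a, which encodes MLL1, had log2 signals of 9.44 and 9.66. Its probe set gives 1 summary of the whole transcript and does not check the deletion of a few exons. The paper checked the deletion by other means: RT-qPCR, MLL1 protein, and array values along the Mll1 transcript. The 12 measured markers of myoblasts all had a control signal over 7, with medians of 10.28 in the control and 10.16 in the Mll1 cKO array, and 9 of them were lower. Past 2-fold were Myf5, a myogenic transcription factor that went from 9.51 to 6.14 (10.3-fold lower), and Fgfr4, an FGF receptor that was 2.34-fold lower, with a Mll1 cKO signal of 7.77.

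Collagen genes were lower in the Mll1 cKO array almost without exception, and each by a small amount. Of the 44 genes, 41 were lower and 3, Col18a1, Col6a1 and Col14a1, were higher. Among all named genes, 55.6% were lower. The median log2 difference was -0.37 for the collagen genes and -0.05 for all named genes, and the middle of the collagen values, from the lower to the upper quartile, ran from -0.45 to -0.20. No collagen gene passed the 2-fold cut-off of the study's methods in either direction, which 1.16% of all named genes passed as higher and 0.11% as lower. At 1.5-fold, 2 collagen genes were lower and none was higher, beside 2.01% and 4.86% of all named genes. These were Col19a1 and Col15a1, both with signals under 7. After a further quantile normalization Col15a1 no longer passed, and Col2a1, Col27a1 and Col9a3 passed with Col19a1. The collagen genes stood apart from all named genes in the share on the low side, 93.2% beside 55.6%. Since so few of all named genes passed either cut-off, a set of 44 would hold few or none. The counts past these cut-offs therefore do not set the collagen genes apart.

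Over all named genes, weak signals were lower in the Mll1 cKO array more often than strong ones, so the collagen values were set beside genes of similar signal. The named genes were divided by mean signal into 10 groups of equal size. In the fourth group, with mean signals from 4.66 to 5.28, the median difference of all named genes was -0.23, and in the sixth, from 6.15 to 7.16, it was 0.09. Of the 44 collagen genes, 10 lie in the fourth group, 13 in the fifth and 12 in the sixth. Compared with the median of their own group, 37 of 44 were lower, among them all 11 fibrillar genes, 4 of 6 Col4 genes and 22 of 27 others. As a value for genes that are mostly silent outside the nose, 1015 odorant receptor genes were chosen after the values were seen. They had a median difference of -0.09, with 676 lower and 225 higher. Their signals were weaker than those of the collagen genes, with a median control signal of 3.24 beside 6.04. In the 4 weakest groups lie 994 of the 1015 and 11 of the 44, so this is no value for genes of similar signal. With a smooth trend of the difference on signal taken away, 39 of 44 collagen genes were still lower, with a median of -0.29 beside 0.01 for all named genes.

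**Figure D1:**
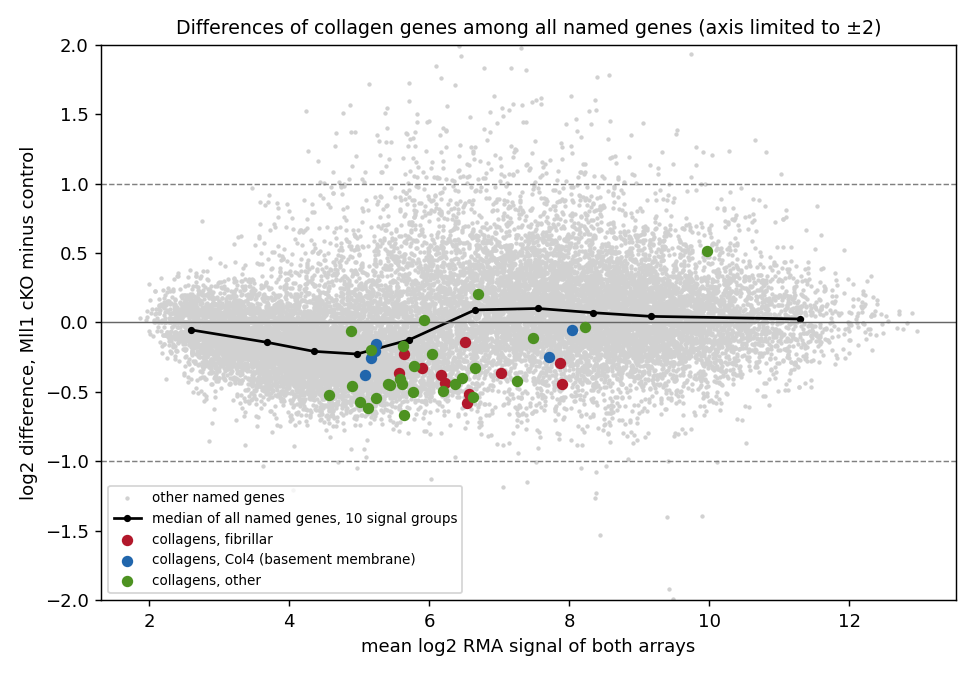
Log2 difference (Mll1 cKO minus control) against mean log2 RMA signal of both arrays for all named genes (grey) and the collagen genes, coloured by class. The black line joins the medians of all named genes in 10 signal groups, dashed lines mark 2-fold, and 19 genes past a difference of 2 are not drawn. Most collagen genes lie under the black line at signals between 5 and 8, and all of them lie within the dashed lines.

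The signal was over 7 in the higher array for 9 collagen genes, Col3a1, Col5a1, Col5a2, Col4a1, Col4a2, Col8a1, Col12a1, Col18a1 and Col26a1. Signals of different probe sets depend on their probes, so this shows only which genes gave a strong reading and is no ranking of their transcripts. Of these 9 genes 8 were lower, with a median difference of -0.25, whereas 40.7% of the 8633 named genes with a signal over 7 were lower, with a median of 0.06. The other 35 had a median of -0.40, and 33 of them were lower, beside a median of -0.13 and 67.0% lower over the 11305 named genes with no signal over 7. With the trend on signal removed or the arrays quantile normalized again, 8 of the 9 strong readings were lower. With all differences centred on their median 6 were, since Col4a1 and Col12a1 then turned to 0.0026 and 0.026.

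All 11 fibrillar genes were lower in the Mll1 cKO array, with a median log2 difference of -0.36. Col3a1, the single chain of type III collagen of stretchable tissues, went from 8.12 (control) to 7.67 (Mll1 cKO), 1.36-fold lower. It lies next to Col5a2 in the genome, with no other protein-coding gene between them. Col5a2 encodes a chain of type V collagen, which starts type I fibrils, and went from 8.01 to 7.72, 1.22-fold lower. Col5a1, the other main chain of type V, went from 7.21 to 6.85, and Col5a3 from 6.06 to 5.73. The differences of these type V chains lay within 0.07 of each other.

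Type I collagen, the main protein of tendon and bone, is built from the products of Col1a1 and Col1a2. Col1a1 had log2 signals of 6.58 and 6.43, a difference of -0.14, the smallest of the fibrillar class. Col1a2 had signals of 6.36 and 5.98, a difference of -0.38. Neither probe set reached a signal of 7. The cartilage collagens of the class were also lower. Col2a1, the chain of cartilage type II collagen, went from 6.82 to 6.24, 1.49-fold lower, and Col27a1, also a cartilage collagen, from 6.83 to 6.31, 1.43-fold lower. Col11a1 and Col11a2, which encode chains of type XI collagen, differed by -0.36 and -0.43, and Col24a1 went from 5.75 to 5.53.

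Sequence before the start of Col3a1 is shown because this gene had the largest decrease among collagen genes with a signal over 7, and that before Col18a1 because it had the largest increase. Both come from RefSeq (GRCm38.p6) and hold the 250 bases before the outermost start listed for each gene, at chr1:45311288-45311537 on the plus strand and at chr10:77166531-77166780 on the minus strand. Capitals mark matches on either strand to TATAAA, the core of a TATA box, to CCAAT, and to GGGCGG, the core of a GC box. The matches in these stretches do not overlap.
Col3a1: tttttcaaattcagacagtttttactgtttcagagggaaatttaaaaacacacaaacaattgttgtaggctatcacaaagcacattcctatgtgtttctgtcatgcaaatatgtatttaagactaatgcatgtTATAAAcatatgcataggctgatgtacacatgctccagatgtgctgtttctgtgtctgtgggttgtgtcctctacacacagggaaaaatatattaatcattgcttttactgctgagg
Col18a1: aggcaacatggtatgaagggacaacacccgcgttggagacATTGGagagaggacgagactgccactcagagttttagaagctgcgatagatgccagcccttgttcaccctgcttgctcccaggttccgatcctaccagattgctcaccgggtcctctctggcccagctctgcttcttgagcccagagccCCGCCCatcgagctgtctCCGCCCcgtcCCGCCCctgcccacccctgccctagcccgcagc

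Col3a1 has 1 match to TATAAA in this stretch and none to the others, and Col18a1 has 1 match to CCAAT, 3 to GGGCGG and none to TATAAA. Of the 44 collagen genes, 35 had a promoter window in the table, 38 windows in all, each running from 250 bases before to 50 after a start. Among them is another window of Col18a1, at chr10:77113656-77113955, which holds no match to any of these motifs. GGGCGG was found in 23 of the 38 windows (60.5%) and in 35.7% of the 32851 windows of all genes. CCAAT was found in 13 (34.2%) and in 37.4% of all windows, and TATAAA in 5 (13.2%) and in 13.6%. A match is a description of the letters and not a site of binding.

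The 6 Col4 genes were all lower as well, with a median of -0.23, nearer to 0 than those of the other classes. Among genes with a signal over 7 the Col4 median was -0.15, and that of the other types lay nearer to 0, at -0.073. Of the 6 genes, 4 lie in the fourth signal group, whose own median was -0.23. Col4a1 and Col4a2 encode the chains of the type IV molecule found in basement membranes throughout the body. Col4a1 had log2 signals of 8.06 and 8.01, a difference of -0.06. Col4a2 had signals of 7.84 and 7.59, a difference of -0.25. The chains of kidney, lung and nerve basement membranes, Col4a3 to Col4a6, had weak signals between 4.89 and 5.33 and differences from -0.38 for Col4a6 to -0.15 for Col4a4. Under removal of the trend on signal the median of the class moved to -0.092 and Col4a4 turned to 0.03.

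Col4 genes lie in pairs, head to head, with Col4a1 beside Col4a2, Col4a3 beside Col4a4 and Col4a5 beside Col4a6. The starts that RefSeq (GRCm38.p6) lists for Col4a2 and Col4a1, at 11312805 and 11312826 of chromosome 8, lie so that the listed genes overlap by 22 bases, since Col4a2 is read to the right and Col4a1 to the left. Both genes were measured with a strong reading, so the CCAAT matches around these starts are shown, with the match in capitals, each as 30 bases of the plus strand, on which Col4a2 is read. The first lies at chr8:11312761-11312790, which is before the start of Col4a2 and inside Col4a1. The second lies at chr8:11312955-11312984, which is before the start of Col4a1 and inside Col4a2.
First match: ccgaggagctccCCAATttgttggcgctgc
Second match: ccccttggctcgCCAATcccgggcaagcac

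In the joint window of 522 bases there were 2 matches to CCAAT, 3 to GGGCGG and none to TATAAA. The differences of the 2 genes, -0.06 and -0.25, were 0.19 apart. Those of Col4a3 and Col4a4 were -0.26 and -0.15, and those of Col4a5 and Col4a6 were -0.20 and -0.38. With no replicate, it is not known whether gaps of this size exceed the variation between arrays.

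**Figure D2:**
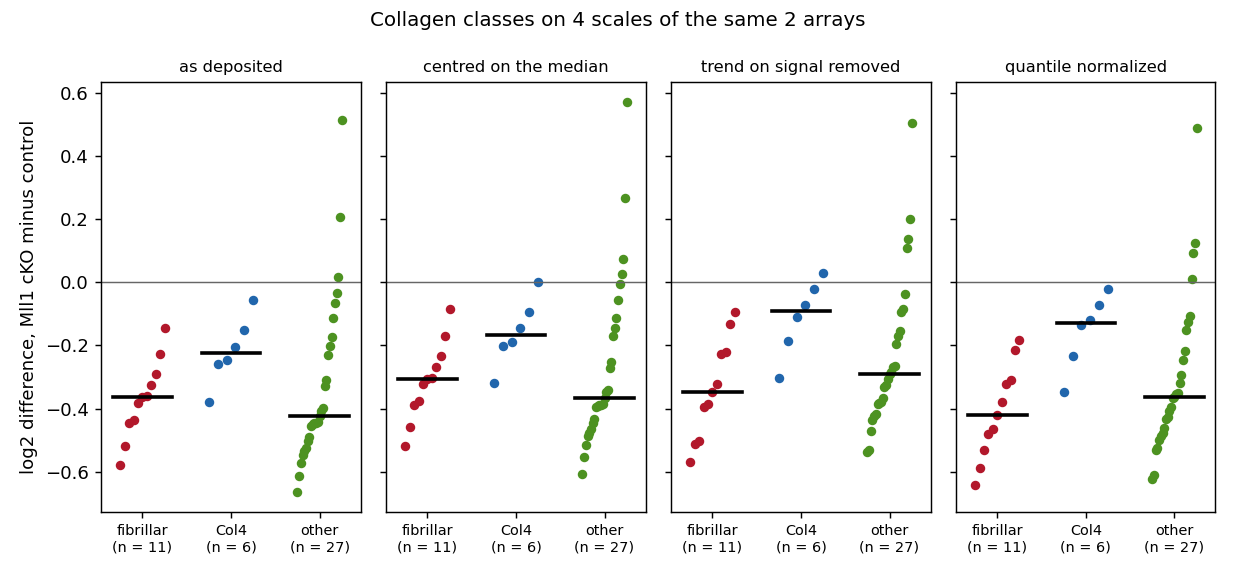
Log2 differences (Mll1 cKO minus control) of fibrillar, Col4 and other collagen genes as deposited, centred on the median of all probe sets, with the trend on signal removed, and after a further quantile normalization. Each point is a gene and each bar a class median. On every scale the class medians lie below 0, and the Col4 median, from -0.23 to -0.092, is the one nearest to 0.

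Among the other types, Col18a1 went the opposite way from most collagen genes. It encodes the core chain of type XVIII collagen, a basement membrane proteoglycan whose end fragment is endostatin. Its log2 signals were 9.72 (control) and 10.23 (Mll1 cKO), 1.43-fold higher, which did not pass 1.5-fold. Of all named genes in its signal group, 94.8% had a difference as low or lower. On the 3 other scales its difference stayed between 0.49 and 0.57. Col15a1, the other collagen of this multiplexin class and also a basement membrane proteoglycan, had signals of 5.43 and 4.81 and was 1.53-fold lower. That difference no longer passed 1.5-fold on any of these scales.

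Type VI collagen, a beaded filament at the surface of muscle fibres whose loss causes muscular dystrophy, is assembled from the products of Col6a1, Col6a2 and Col6a3. Col6a1 was higher, with log2 signals of 6.59 and 6.80. Col6a2 was lower, with 6.16 and 5.93, and Col6a3 was lower, with 5.66 and 5.21. Their differences spanned 0.66, more than those of the 7 other sets of partner chains compared, which spanned 0.07 to 0.29. Col6a4, Col6a5 and Col6a6, neighbours in the genome, were all lower, by 0.57, 0.45 and 0.20 on the log2 scale. Of the 2 probe sets of Col6a6, 1 was listed at the same signal of 4.08 in both arrays.

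Of the 9 genes of fibril-associated collagens with interrupted helices (FACIT), 8 were lower and the median was -0.49. Col19a1 went from 5.97 to 5.31, 1.59-fold lower, the largest difference of the collagen genes as deposited and after centring. With the trend on signal removed its difference was -0.53, it no longer passed 1.5-fold, and Col2a1 (-0.57) and Col9a3 (-0.54) differed by more. After quantile normalization Col2a1 (-0.64) differed by more than Col19a1 (-0.62). Col9a1, its neighbour, went from 5.52 to 4.97, and Col9a3 from 6.90 to 6.36. These encode chains of cartilage type IX collagen. Col22a1, a collagen of the muscle and tendon junction, went from 6.02 to 5.52. Col12a1, which coats type I fibrils in tendon and muscle fascia, had the stronger signals of 8.24 and 8.21 and differed by -0.03. Col14a1, a close relative of Col12a1, had signals of 5.92 and 5.94.

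The transmembrane types Col13a1, Col17a1, Col23a1 and Col25a1 were all lower, with a median of -0.42 and signals under 7. Col13a1 and Col25a1, which encode collagens of the neuromuscular junction, differed by -0.31 and -0.44. In the short-chain network class Col8a1 went from 7.54 to 7.43, whereas Col8a2 went from 5.78 to 5.37. Col10a1, the collagen of growing cartilage, had signals of 4.91 and 4.85. Col26a1 went from 7.46 to 7.04, 1.34-fold lower, and Col7a1, which encodes the anchoring fibrils of skin, from 6.59 to 6.15. Col28a1 had the weak signals of 4.84 and 4.31.

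Collagen genes also share a large size. Their median span in the RefSeq table was 114 kb, beside 17.7 kb for all named genes, and 28 of 44 fell in the longest 5th of named genes. Over all named genes in that group with signals in the range of the collagen genes, the median difference was 0.04, whereas the 28 collagen genes in it had a median of -0.36. Over all named genes in that signal range, the median rose from -0.12 in the shortest 5th to 0.04 in the longest. Among the collagen genes, 4 in the middle 5th had a median of -0.24, and 11 in the next longer 5th had -0.43. The part of span in the collagen values was not tested.

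Genes for the enzymes that modify collagen lay on both sides of 0. Of 15 genes for the hydroxylation and glycosylation of collagen chains, 9 were higher and 6 lower. Their median was 0.07, and none passed 1.5-fold. P4ha1, the catalytic chain of the main prolyl hydroxylase, went from 8.90 to 8.66, and P4hb, its partner, from 10.89 to 10.76. P4ha3, another catalytic chain, went from 7.62 to 8.16, 1.45-fold higher. Serpinh1, the collagen-specific chaperone HSP47, went from 10.26 to 9.95, 1.25-fold lower. Of 17 chaperone and export genes 9 were higher and 7 lower, with a median of 0.01. Of these, Fkbp14, a prolyl isomerase, passed 1.5-fold, with signals of 7.68 and 8.28, although neither on the quantile normalized scale nor once the trend on signal was taken away.

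Among 9 genes for the trimming of procollagen, 7 were lower and the median was -0.20. Of the 9, 5 lie in the 4 weakest signal groups, where 57.6% to 79.8% of all named genes were lower. Among those with a signal over 7 the median was -0.0070. Bmp1, the proteinase that removes the C-terminal propeptide, went from 9.82 to 10.00, and Pcolce, its enhancer, from 10.32 to 10.55. Pcolce2 went from 10.20 to 9.88. Cross-linking genes leaned higher, with 5 of 8 higher and a median of 0.22. Lox, the lysyl oxidase of fibrillar collagens, had weak signals of 5.26 and 6.02 and was 1.70-fold higher, and its relative Loxl1 went from 7.42 to 8.02, 1.52-fold higher. Loxl1 missed 1.5-fold with the trend on signal removed and after quantile normalization. Sparc, a collagen-binding protein, had signals of 12.47 and 12.45.

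Of 24 genes for proteins that sit on collagen fibrils, 9 were higher and 14 lower, with a median of -0.07. Ogn and Bgn, the small leucine-rich proteins osteoglycin and biglycan, were 1.97-fold and 1.90-fold higher, with signals of 6.25 and 7.22 for Ogn and of 8.31 and 9.24 for Bgn. Fn1, which encodes fibronectin, the scaffold on which collagen fibrils are laid down, went from 11.66 to 12.18. Thbs1, a thrombospondin, went from 11.58 to 11.14. Of 21 partners in the basement membrane 14 were lower, with a median of -0.17. Lamc1, the laminin chain shared by most laminins, went from 8.95 to 8.26, 1.61-fold lower, while Agrn, which encodes agrin, went from 7.89 to 8.56 and Smoc2 from 6.72 to 7.54. Nid1, which links laminin to type IV collagen, went from 9.91 to 10.09.

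Of 12 measured receptors for collagen, 7 were higher and 5 lower, with a median of 0.05. Past 1.5-fold as higher were 2 of them, beside 4.86% of all named genes. Itgb1, the beta chain of the collagen-binding integrins, went from 10.64 to 10.52, and Adgrg1, an adhesion receptor for type III collagen, from 9.13 to 9.76, 1.54-fold higher. Adgrg6, an adhesion receptor for type IV collagen with no signal over 7, went from 6.14 to 6.80, 1.59-fold higher. Of 17 genes for the breakdown of collagen and its control, 11 were higher, with a median of 0.10. Timp3, an inhibitor of matrix proteases, went from 5.60 to 8.59, the only gene of these lists past 2-fold as deposited. After centring Ogn passed 2-fold too, at 2.05-fold. Mmp16, a membrane-bound protease, went from 7.54 to 8.22. Mmp14, the membrane-bound collagenase, went from 8.95 to 9.31, whereas Mmp2, a gelatinase, had signals of 5.85 and 5.76.

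**Figure D3:**
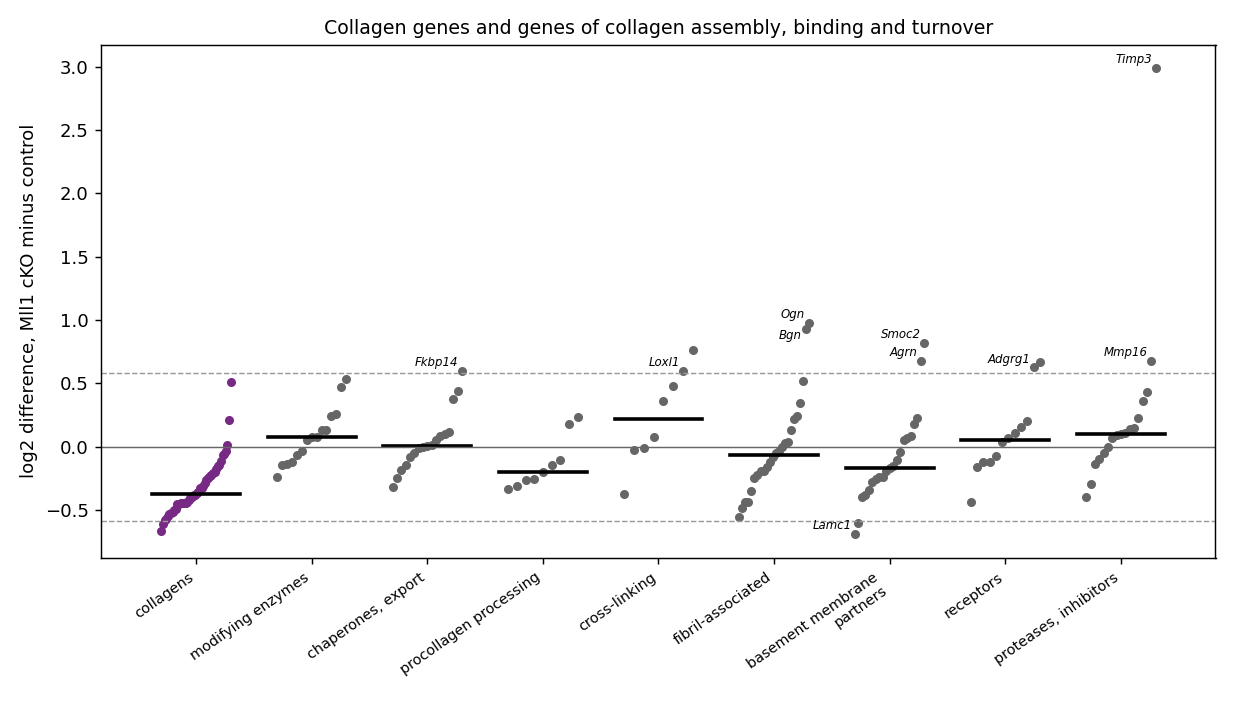
Log2 differences (Mll1 cKO minus control) of the 44 collagen genes (purple) and of the genes of 8 lists for collagen assembly, binding and turnover (grey), with a bar at each median and dashed lines at 1.5-fold. Gene names mark members past 1.5-fold whose stronger signal was over 7. The collagen median of -0.37 is the lowest of the 9, and on this deposited scale Timp3 is the only point past 2-fold.

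Markers of other cells were set beside these values, since fibroblasts make more collagen than myoblasts do. According to the methods, cells with CD11b, SCA1, CD45 or CD31 were depleted with magnetic beads and cells with α7-integrin were then selected. The depleted proteins mark immune and endothelial cells and many muscle fibroblasts. In bulk RNA, fewer cells of a type and less RNA per cell cannot be told apart. Of 16 listed markers of fibroblasts, Ly6a, which encodes SCA1, and Ly6c1 had no probe set with 1 symbol. The paper lists Ly6a as upregulated in this array and by qPCR, and this gene is not in the counts here. Of the 14 measured markers, 4 of which also stand in the list of fibril proteins, 12 were lower and 1 was higher. Their summed linear signal was 1189 in the control and 1020.3 in the Mll1 cKO array. Of the 14, 10 lie in the 4 weakest signal groups, where 57.6% to 79.8% of all named genes were lower, and on each of the 3 other scales 4 were higher and 10 lower. Osr1, a transcription factor of connective tissue and 1 of the 2 with a signal over 7, went from 8.35 to 7.78. The other was Fbln1, at 8.99 and 8.94. These 2 genes make up most of the sum, and most of its fall comes from Osr1. Osr1 missed 1.5-fold as deposited and passed it with the trend removed (1.54-fold) and after quantile normalization (1.57-fold). An RMA signal has no 0, so absence cannot be read from it. The defining markers Pdgfra, Pdgfrb, Thy1, Dcn, Dpt and Lum had control signals of 5.15, 4.91, 5.90, 4.44, 3.74 and 2.58 and Mll1 cKO signals of 5.09, 4.56, 5.55, 4.79, 3.18 and 2.39. Dcn was higher and the other 5 were lower. Pi16, a marker of adventitial fibroblasts, was the member past 1.5-fold as deposited, at 4.78 and 4.12, but not with the trend removed (1.38-fold) or after quantile normalization (1.41-fold). Of 8 endothelial markers 7 were lower, with a sum of 237 and 198. None of the 8 had a signal over 7, and 6 lie in the same 4 weakest groups. On each of the 3 other scales 2 were higher and 6 lower. Of 12 genes of differentiated muscle, 11 were higher, with a sum of 4209 and 8059. Over 2-fold higher were 5 of them, beside 1.16% of all named genes. Of the remaining lists, 4 of 6 tendon, 4 of 8 smooth muscle and pericyte, 2 of 8 cartilage, 1 of 4 Schwann cell and 1 of 6 immune markers were higher. That immune marker was Cd68, a lysosomal protein of macrophages, which went from 6.08 to 7.47, 2.62-fold higher. The sum of the immune markers was 172 and 264. Its rise comes from Cd68 alone, as the other 5 were lower. The part of these cells or of differentiation in the collagen values was not tested.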

How the data were processed

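RNA of 1 control and 1 Mll1 cKO myoblast culture was hybridised to Affymetrix MoGene 1.0 ST arrays. The authors used RMA (background correction, quantile normalization, 1 summary per probe set) and deposited log2 signals of 35557 probe sets. For RMA no version, and for the array no genome build, is given in the sources used here. The lowest unbroken run of probe set numbers, 6613 in all, was taken as control probe sets and left out. Of the 28944 others, 21789 had 1 symbol in the platform annotation, 1621 had several and 5534 had none. Symbols were updated by gene number to RefSeq GRCm38.p6. Probe sets of a gene were averaged.

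Differences are Mll1 cKO minus control. Genes are named here if they are collagens, or list members past 1.5-fold with a signal over 7. In a pathway list without such a member, the one with the largest difference at such a signal is named. Core enzymes, Kmt2a and the defining fibroblast markers were added. Pcolce, Sparc, Fn1, Thbs1, Nid1, Itgb1, Mmp2, Mmp14, Adgrg6 and the markers Pi16, Osr1, Fbln1, Ly6a, Ly6c1, Myf5, Fgfr4 and Cd68 were named after the values were seen. The collagen genes and the gene lists were chosen with earlier results of these data known. Of the listed genes, 11 had no probe set with 1 symbol. Alternatives were centring, removal of a lowess trend (span 0.3), quantile normalization, a signal over 6 or 7, the probe set with the highest signal, a 3-fold cut-off and means in place of medians. The steps were tested on simulated data with planted differences past 2-fold and no trend on signal. Differences as small as those of the collagen genes were not covered. Python 3.11.15, numpy 2.4.6, pandas 2.3.3, scipy 1.17.1, statsmodels 0.14.6 and matplotlib 3.10.9 were used. Promoter windows are from RefSeq GRCm38.p6.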

Additional observations from a re-analysis of the deposited data

How the results depend on the processing

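No collagen gene passed 2-fold in either direction under any alternative run. The 1.5-fold count of 2 lower genes became 1 after centring and 0 with the trend on signal removed. It became 4 after quantile normalization (Col19a1, Col2a1, Col27a1 and Col9a3, without Col15a1). Among genes with a signal over 7 or over 6 it was 0. That 0 was fixed by the signal cut-off, because Col19a1 and Col15a1 had signals under 6. The count of 3 higher genes became 5 after centring, 5 with the trend removed and 1 among genes with a signal over 7. The medians of all collagen genes and of each class stayed negative. They moved by over 0.1 to -0.25 (all, signal over 7), -0.092 (Col4, trend removed) and, for the other types, to -0.29 (trend removed), -0.073 (signal over 7) and -0.32 (mean). Of the pathway lists, the modifying enzymes turned to -0.015 after quantile normalization. The fibril-associated genes turned to 0.018 (trend removed), 0.0011 (quantile), 0.028 (signal over 7) and 0.12 (over 6). Basement membrane partners went to -0.059 (trend removed) and turned to 0.050 (signal over 7), and receptors turned to -0.0053 (signal over 7). Procollagen processing went to -0.064 (trend removed) and -0.0070 (signal over 7 and over 6), cross-linking to 0.33 (trend removed) and 0.48 (signal over 6), and proteases and inhibitors to 0.36 (signal over 7 and over 6) and 0.26 (mean). No paired analysis was possible because each condition has 1 array. Weak signals limit most collagen values, since 35 of 44 genes had no signal over 7.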
